A study of Mus musculus with 236 samples.

Results

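Mid-S is the class that the deposited cell metadata give to cells judged to be in the middle of DNA synthesis. The cells described here were those named in a sample title and carrying the Mid-S value in the metadata column of cell cycle classes, 87 at day 0.5 and 62 at day 2.5, of 406 cells with an expression profile. They came from a female mouse embryonic stem cell line derived from blastocysts of C57BL/6J (B6) females crossed to CAST/EiJ (CAST) males, so its paternal and maternal X chromosomes can be told apart by sequence. The line was grown on gelatin in serum medium with leukemia inhibitory factor (LIF), the Gsk3 inhibitor CT99021 and the MEK inhibitor PD0325901, the pair of inhibitors known as 2i. Differentiation, and with it random X inactivation, was started by taking 2i and LIF away in serum medium on fibronectin, and cells were taken 0.5 and 2.5 days later. All cells carried the same hybrid genotype, no cell stayed in 2i and LIF, and the labels name neither separate cultures nor clones. Each day was therefore 1 sample, and no test between the days or the classes was possible. Chromatin contacts and RNA were read from the same cells with HiRES.

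DNA synthesis starts from origins licensed by ORC, CDC6 and the MCM helicase, whose genes are transcribed under E2F factors around the entry into S phase. As S phase proceeds those transcripts decline, and transcripts of the mitotic programme, among them kinesins and spindle regulators, begin to accumulate towards G2. Female embryonic stem cells carry 2 active X chromosomes, and when they leave the ground state of pluripotency the long non-coding RNA Xist coats 1 of them and silences it.

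Mid-S made up 43.3% of the cells of day 0.5 (exact Clopper-Pearson 95% interval 36.3 to 50.4) and 30.2% of those of day 2.5 (24.04 to 37.03). The metadata also name 3 sets of cells, whose meaning the sources used here do not give; set 1 lay at day 0.5, set 3 at day 2.5, and set 2 at both days. By set the Mid-S share was 51.2% (41 of 80) and 38.02% (46 cells) at day 0.5 and 33.6% (41 cells) and 25.3% (21 of 83) at day 2.5. Within set 2 the shares of the days lay inside each other's intervals. The G1 class moved the other way, from 41 cells (20.4%) to 82 cells (40%). The other classes held 32 Early-S, 20 Late-S, 6 G2 and 15 M cells at day 0.5, and 15 Early-S, 17 Late-S, 18 G2, 7 M and 4 G0 cells at day 2.5.

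The Mid-S cells summed to 1229920 unique molecular identifiers (UMIs) at day 0.5 and 1074730 at day 2.5, with a median of 14435 per cell (5154 to 23179) and 17448 per cell (4658 to 26942). The other classes had medians of 12597 and 15349. No cell name occurred in more than 1 library and no pair of cells had identical profiles. A library names up to 2 cells, and 23 libraries held 2 Mid-S cells. The median share of UMIs in exons was 26.2% and 24.3% in Mid-S, against 26.3% and 23.99% in the other classes, and 1 Mid-S cell of day 2.5 reached 46.3%. Markers of other cell types were summed over whole lists. All 10 genes of 2-cell-like cells were at 0 in Mid-S at both days. The 14 primitive endoderm genes summed to 130.5 CPM in Mid-S and 173.2 in the other classes at day 0.5, and to 249.8 and 359 at day 2.5, with 4 of them at 0 in Mid-S at each day. The 10 fibroblast genes summed to 400.03 and 507 CPM and then 75.4 and 110.4, of which Fn1, a matrix protein gene, gave 391 and 66.99 in Mid-S. The sums were 122.4 and 204.1 and then 24.2 and 31.7 CPM for 10 trophectoderm genes, 31.7 and 34.4 and then 70.7 and 60.6 for 11 primitive streak genes, and 278 and 474 and then 208.7 and 317.97 for 9 neuroectoderm genes. The part of these genes in the results was not tested. Of single markers, Sox17 was at 0 in Mid-S at both days, as were Col3a1 and Mixl1. Other defining markers were present. Gata4, Gata6, Sox17 and Pdgfra summed to 16.3 CPM in Mid-S against 17.2 in the other classes, and then to 23.3 against 15.2. Col1a1, Col1a2, Col3a1 and Thy1 gave 6.91 against 5.26 and 1.86 against 4.26. T and Mixl1 gave 2.44 against 0 and 0 against 1.42. Sox1 and Pax6 gave 8.94 against 4.21 and 7.44 against 1.18, on 2.5 to 11 UMIs, which is the other way from the neuroectoderm list.

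The sources used here do not say how the classes were drawn, nor whether RNA entered them. The metadata hold scores for S phase and for G2 and M phase. The median S phase score of Mid-S was 0.00566 at day 0.5 and -0.120 at day 2.5, below the 0.261 and 0.171 of the G1 class. The G2 and M phase score was 0.0663 and 0.135 in Mid-S, against -0.0996 and -0.188 in G1. Every Mid-S cell lay inside the range of S phase scores that the G1 cells covered, and 88.6% lay inside their range of G2 and M phase scores. The share of chromatin contacts that joined different chromosomes was higher in Mid-S, with medians of 8.23% and 10.8%, than in G1, with 5.20% and 7.34%, or in M, with 2.51% and 3.66%. Early-S cells had 7.60% and 9.51%, and Late-S cells 7.41% and 11.3%.

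The marker genes given for mid S phase, Hells, Mcm3 and Rrm2, went against the class name, because each was lower in the cells classed Mid-S than in the other classes together at both days. The name Mid-S is therefore used only for the authors' class. Levels are counts per 1000000 UMIs of the summed cells (CPM), and intervals cover counting error only. They do not cover the spread between cultures, which 1 sample per day cannot give.

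The promoters of these genes and of Cdc6, Uhrf1, Slbp and Dtl, which were also lower in Mid-S, are shown because E2F factors are known to drive many genes of S phase. They were chosen after their values were seen. Sequences are the 250 bases before the start site from RefSeq (GRCm38.p6), 5′ to 3′ on the gene's strand, with capitals marking a match to the E2F letters TTTCCCGC, TTTGGCGC, TTTCGCGC or TTTGCCGC on either strand. Mcm3 had its matches just after the start and is shown by the stretch that spans them, chr1:20820267-20820293 on the minus strand. For Uhrf1 the second of its start sites in the table is shown, and the first had no match.
Hells (chr19:38930740-38930989, plus strand): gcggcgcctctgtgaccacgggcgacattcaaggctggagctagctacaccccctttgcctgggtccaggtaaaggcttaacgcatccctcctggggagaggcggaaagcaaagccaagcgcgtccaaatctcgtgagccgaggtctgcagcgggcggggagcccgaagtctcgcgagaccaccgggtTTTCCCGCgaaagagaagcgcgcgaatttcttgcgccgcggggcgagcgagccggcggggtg
Rrm2 (chr12:24708004-24708253, plus strand): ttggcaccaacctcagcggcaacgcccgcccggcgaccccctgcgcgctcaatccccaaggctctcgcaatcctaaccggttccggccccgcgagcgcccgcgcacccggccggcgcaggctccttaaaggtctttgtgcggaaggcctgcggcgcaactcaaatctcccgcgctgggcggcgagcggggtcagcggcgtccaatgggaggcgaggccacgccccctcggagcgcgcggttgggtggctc
Mcm3 (chr1:20820267-20820293, minus strand): GCGGGAAAacttgggaagtTTTGGCGC
Cdc6 (chr11:98907901-98908150, plus strand): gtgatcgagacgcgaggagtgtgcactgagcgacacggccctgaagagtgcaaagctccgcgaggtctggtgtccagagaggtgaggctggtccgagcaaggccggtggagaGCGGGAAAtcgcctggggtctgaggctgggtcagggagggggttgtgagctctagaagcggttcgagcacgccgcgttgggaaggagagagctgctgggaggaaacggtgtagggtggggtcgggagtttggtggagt
Uhrf1 (chr17:56304063-56304312, plus strand): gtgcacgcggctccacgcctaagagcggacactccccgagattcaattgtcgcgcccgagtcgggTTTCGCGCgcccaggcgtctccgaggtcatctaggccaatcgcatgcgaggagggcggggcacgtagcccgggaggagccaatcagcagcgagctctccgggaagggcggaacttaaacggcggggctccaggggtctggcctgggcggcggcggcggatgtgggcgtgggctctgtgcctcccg
Slbp (chr5:33652575-33652824, minus strand): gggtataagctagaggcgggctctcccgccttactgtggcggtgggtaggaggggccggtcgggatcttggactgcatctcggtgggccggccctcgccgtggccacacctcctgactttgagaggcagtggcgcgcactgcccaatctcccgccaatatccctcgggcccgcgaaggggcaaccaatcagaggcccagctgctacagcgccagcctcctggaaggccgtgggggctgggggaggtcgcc
Dtl (chr1:191575545-191575794, minus strand): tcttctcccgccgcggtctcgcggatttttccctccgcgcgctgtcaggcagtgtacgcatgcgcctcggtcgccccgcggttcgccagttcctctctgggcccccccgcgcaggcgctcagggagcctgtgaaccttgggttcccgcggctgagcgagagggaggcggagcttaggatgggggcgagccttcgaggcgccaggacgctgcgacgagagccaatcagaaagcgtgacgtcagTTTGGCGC

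Hells, Cdc6, Uhrf1 and Dtl each had 1 match in the window shown, and Rrm2 and Slbp had none. Counted over 300 bases, from 250 before to 50 after the start, 2.605% of the 27025 genes in the promoter table held a match, and 6.02% of the genes tested below that had a promoter there. A match is a run of letters and not a measured binding site.

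Hells, a chromatin remodeller that works with DNA methylation during replication, was the most abundant of the markers. In the Mid-S cells it stood at 763 and 836 CPM in sets 1 and 2 of day 0.5 and at 425 and 561 in sets 2 and 3 of day 2.5. The other classes of the same sets had 969, 968, 748 and 868 CPM, so every set was lower in Mid-S. Mid-S over the other classes gave a ratio of 0.821 (0.755 to 0.891) at the earlier day and 0.587 (0.530 to 0.647) at the later. Over single Mid-S cells the level ran from 0 through a median of 778 to 2179 CPM at day 0.5, and from 0 through 404 to 1433 at day 2.5. The G1 cells had medians of 1001 and 862, and the ranges of the classes overlapped almost completely.

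Rrm2 encodes the S phase subunit of ribonucleotide reductase, which makes deoxynucleotides. Its level in Mid-S was 91.2 and 95.5 CPM in the sets of day 0.5 and 30.4 and 33.9 in those of day 2.5, against 124.2, 159.4, 98.3 and 99.7 in the other classes. The ratio was 0.637 (0.501 to 0.802) and 0.320 (0.216 to 0.461). An Rrm2 UMI was seen in 55 of 87 Mid-S cells at day 0.5 (63.2%) and in 18 of 62 at day 2.5 (29.03%), against 57 of 82 G1 cells at day 2.5 (69.5%). With each cell thinned to 5000 UMIs, the day 2.5 shares were 9.84% in Mid-S and 42.5% in G1.

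Mcm3, a subunit of the MCM helicase, was sparse. It stood at 33.8, 48.2, 36.9 and 23.5 CPM in the same order of sets, against 56.04, 60.6, 56.8 and 53.5 in the other classes. Its ratios were 0.683 (0.476 to 0.991) and 0.582 (0.381 to 0.850), on 49.5 and 34.5 UMIs. Among single classes Mcm3 in Mid-S was not separable from Early-S, with 35.8 and 40.4 CPM.

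Markers of the neighbouring phases were read in the same way. Ccne1, the cyclin of the G1 to S transition, was lower in Mid-S than elsewhere, at 34.96 against 68.7 CPM and 27.9 against 42.6. Ccnd1, a cyclin of G1, was at 123.6 against 113.6 and then at 18.6 against 44.05, and Cdt1, a licensing factor destroyed in S phase, at 38.2 against 39.97 and 15.8 against 34.3. Of the G2 and M markers, Top2a, the topoisomerase that resolves sister DNAs, was level at day 0.5 (503 against 500.3 CPM) and higher at day 2.5 (758 against 532). Mki67, a protein of the mitotic chromosome surface, was at 170.7 against 156.4 and 167.5 against 107.5. Ccnb1, a mitotic cyclin, was at 33.7 against 36.5 and 40.01 against 27.5, and Plk1, a mitotic kinase, at 14.6 against 14.02 and 27.9 against 8.05.

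**Figure D1:**
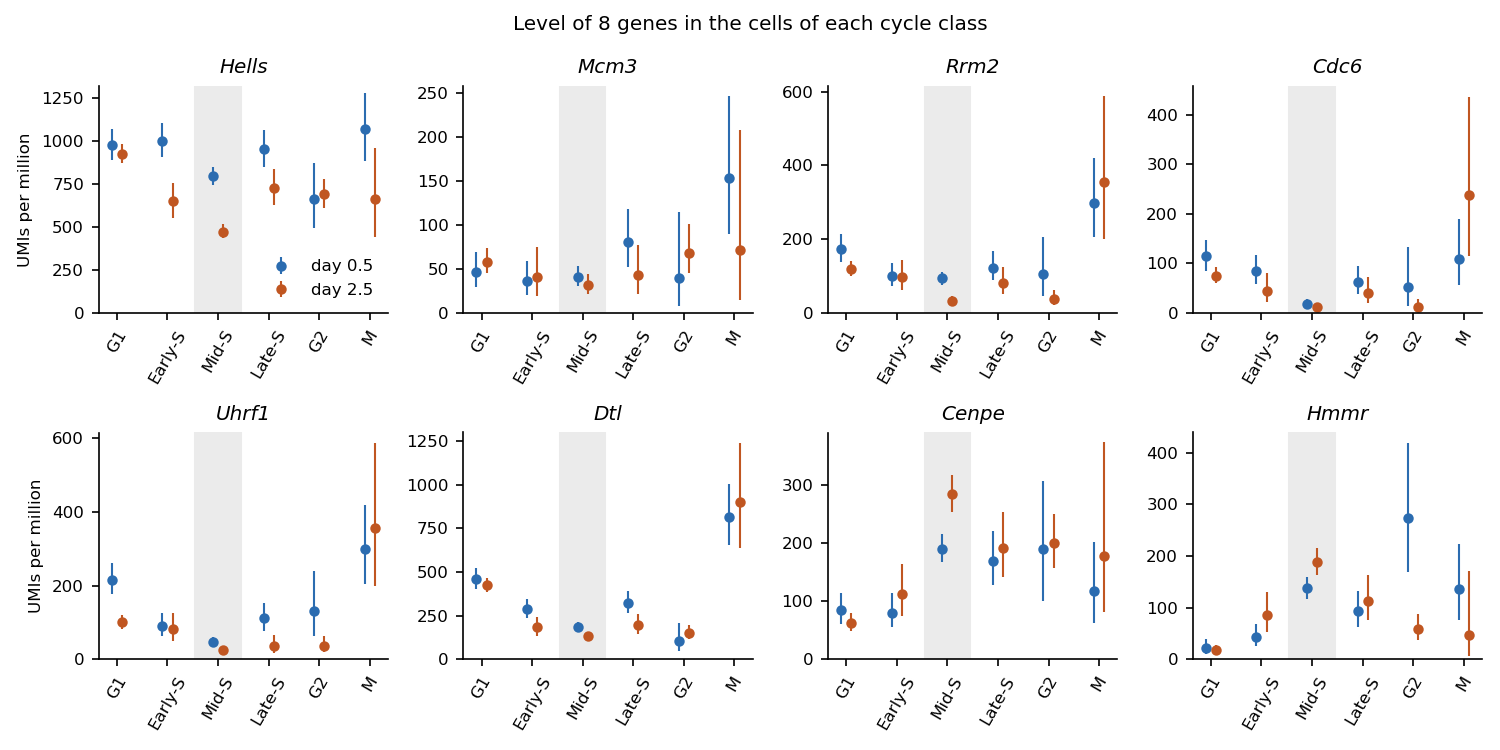
Level of 8 genes, in CPM of the summed cells, in each cell cycle class at day 0.5 (blue) and day 2.5 (orange). Bars are exact Poisson 95% intervals and the grey band marks Mid-S, where Cdc6, at 18.7 and 11.2 CPM, and Uhrf1, at 46.8 and 25.1, were below G1, Early-S, Late-S and M, while Cenpe and Hmmr were above G1 and Early-S.

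Mid-S was next compared with all other classes of the same day over 4575 genes with at least 100 UMIs at each day. With 5 CPM added to both levels, 37 genes were higher by a ratio of at least 1.5 at both days (0.809% of those tested) and 94 were lower by as much (2.05%). Against Early-S and Late-S alone 13 were higher and 24 lower of 3149 tested, and 9 and 15 of these were among the 37 and 94. With each cell thinned to 5000 UMIs 27 were higher and 31 lower of 2013 tested, with 18 and 16 shared. In set 2 alone 28 were higher and 64 lower of 3000 tested, with 22 and 37 shared. Under median-ratio scaling the split was 46 higher and 74 lower, with 37 and 74 shared. The median log2 ratio over all these genes was -0.04 at day 0.5 and -0.01 at day 2.5. Since the class has no replicate, these counts describe the summed cells and are not calls of a test.

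Lists of S phase genes held 23 of the 94 lower genes. Of 6 lists, with 14 tested members in origin licensing, 23 at the replication fork, 15 in nucleotide synthesis, 19 in chromatin assembly, 13 in G1 to S control and 24 in S phase checkpoint and repair, 23 genes were lower in Mid-S at both days and 0 were higher. Among them were Cdc6, Mcm4, Mcm5, Mcm10 and Orc1 of licensing, Clspn, Dna2 and Dtl of the fork, Rrm2 of nucleotide synthesis, Atad2, Casp8ap2, Dnmt1, Mms22l, Slbp, Uhrf1 and Zfp367 of chromatin assembly, Cdc25a and E2f1 of G1 to S control, and Bard1, Brca1, Exo1 and Rad54l of repair. Of 73 lower genes with a promoter in the table, 15 held a match to the E2F letters (20.5%), and of 26 higher genes 2 did (7.69%). In the lists, 9 of 17 licensing promoters, 11 of 28 fork promoters, 8 of 21 chromatin assembly promoters and 1 of 21 nucleotide synthesis promoters held one.

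The licensing loader Cdc6 was the lowest of all. Its Mid-S level was 26.5 and 9.10 CPM in the sets of day 0.5 and 13.02 and 7.82 in those of day 2.5, against 81.3, 94.3, 63.7 and 49.6 in the other classes. Its ratios were 0.209 (0.128 to 0.327) and 0.196 (0.0987 to 0.356), on 23 and 12 UMIs. A Cdc6 UMI was found in 16 of 87 and 11 of 62 Mid-S cells, against 30 of 41 and 49 of 82 G1 cells.

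Uhrf1, which brings DNA methyltransferase 1 to newly copied DNA, stood at 41.9, 52.8, 21.7 and 31.3 CPM in Mid-S across the sets, against 155.03, 158.3, 83.1 and 81.2. The ratios were 0.298 and 0.306. Dnmt1 itself was at 85.4 against 131.01 CPM and then 50.7 against 83.8. Slbp, the protein that binds the stem-loop of replication-dependent histone mRNAs, had ratios of 0.405 and 0.375.

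Dtl, the substrate receptor of the ubiquitin ligase that removes Cdt1 during S phase, was at 172.02, 201.9, 133.8 and 127.8 CPM in Mid-S and at 374, 391, 319 and 329 in the other classes, with ratios of 0.482 and 0.406. Mcm4, another helicase subunit, had 52.9, 45.5, 33.3 and 15.6 CPM against 100.9, 99.9, 84.9 and 89.5. Both genes were lower in Mid-S in every set. Mcm6 was at 158.95 against 208.3 and 67.9 against 164.8, and Pcna, the sliding clamp, at 17.1 against 45.2 and 14.9 against 45.2. Pola1, the catalytic subunit of the primase polymerase, was at 2068 against 2295 and then at 858 against 1455.

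The other genes named as lowest were Plcl2 (ratios 0.326 and 0.495), Usp13 (0.464 and 0.435), Psd3 (0.452 and 0.446), Arl6ip6 (0.504 and 0.460), L3mbtl3, a chromatin reader (0.498 and 0.421), Elavl2 (0.507 and 0.447) and Ncapg2, a condensin subunit (0.512 and 0.522). Each was lower in Mid-S in all 4 combinations of day and set. The genes named as lowest, Cdc6, Uhrf1, Slbp, Dtl and Mcm4 included, were chosen by ratios over the sum of these sets. Their agreement over the sets is therefore no separate check. None of them stood in a replication list.

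On the higher side, 5 of the 37 genes belonged to the G2 and M phase list, of which 40 members were tested and 0 were lower. Hmmr, a spindle protein, was at 142.6 and 130.97 CPM in the Mid-S cells of day 0.5 and at 172.9 and 216.5 in those of day 2.5, against 63.5, 68.5, 33.2 and 56.4 in the other classes. The ratio was 2.06 (1.59 to 2.68) and 4.23 (3.29 to 5.45). A Hmmr UMI was present in 62 of 87 and 53 of 62 Mid-S cells, against 9 of 41 and 14 of 82 G1 cells.

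Cenpe, the kinesin of the kinetochore, stood at 211.7, 162.8, 274 and 301 CPM against 122.3, 103.9, 84.4 and 135.7, with ratios of 1.71 and 2.59. Kif4, a chromosome-arm kinesin encoded on the X, stood at 210.2, 204.6, 220.6 and 208.6 CPM against 112.1, 125.7, 84.9 and 103.1, with ratios of 1.72 and 2.31. Prc1, which bundles midzone microtubules, was at 184.4 against 120.4 and 212.6 against 103.4 CPM, and Aspm, a spindle pole protein, at 65.04 against 37.9 and 66.99 against 30.8. Of 50 promoters of the G2 and M list, 6 held the E2F letters (12%), and those of Hmmr, Cenpe and Kif4 did not.

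Zbtb20, a zinc finger repressor, had ratios of 1.94 and 1.68. Ppp3cb, a catalytic subunit of calcineurin, had 2.04 and 1.68, Msra, a methionine sulfoxide reductase, 1.88 and 1.73, and the non-coding Otx2os1 1.83 and 1.74. Gm11457 had 2.23 and 3.33, and Gm38392, which has no position in the reference table, 1.80 and 1.79. Dpp6 was at 299 against 164.4 CPM and then at 1404 against 516, with 1 cell giving 12.2% and 16.7% of its Mid-S UMIs. Hpse2 had ratios of 2.62 and 2.15, with 1 cell giving 25.4% of its Mid-S UMIs at day 2.5. The genes named here as highest were each higher in Mid-S in all 4 combinations of day and set. They were chosen by ratios over the sum of these same sets, so this agreement is no separate check.

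The length of the called genes was also read. The 36 higher genes with a length had a median of 128.6 kb (62.5 to 284), the 94 lower genes 84.9 kb and all tested genes 56.1 kb. Genes over 300 kb took 10.6% and 13.9% of the UMIs in Mid-S. The shares were 7.91% and 11.9% in G1, 9.44% and 15.2% in Early-S, 11.01% and 13.8% in Late-S, 10.8% and 16.2% in G2 and 3.12% and 3.05% in M, so Mid-S was above G1 and M at both days and above G2 at neither. The nuclear RNA Malat1 was at 3949 CPM in Mid-S against 2077 in G1 at day 0.5, and at 9490 against 4146 at day 2.5. Late-S, at 5780 and 8913 CPM, and G2, at 6522 and 12119, were also above G1. The part of gene length and of nuclear RNA in the gene ratios was not tested.

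The lists were also read with every member of at least 20 UMIs, beside the share of all genes past the same ratio of 1.5, which was 5.09% higher and 9.57% lower at day 0.5 and 5.59% higher and 11.5% lower at day 2.5. Over those genes the median log2 ratios were -0.06 and -0.04. Of 20 licensing genes 0 were higher and 5 lower at day 0.5 (median -0.38), and 1 was higher and 11 lower at day 2.5 (median -0.65). The 1 higher member was Dbf4, the activating subunit of the Cdc7 kinase, at 109.3 against 70.6 CPM. Of the fork genes 0 were higher at either day, and 11 of 36 and 17 of 35 were lower, with medians of -0.52 and -0.57. Of 22 nucleotide genes 4 and 8 were lower and 0 higher (-0.40 and -0.43), and of 23 chromatin assembly genes 12 and 10 were lower and 1 and 0 higher (-0.59 and -0.48).

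The remaining lists were read in the same way. G1 to S control had 13 of 25 and 8 of 26 members lower (medians -0.59 and -0.37), and repair 9 of 32 and 8 of 33 (-0.35 and -0.19). Of 16 cohesin genes 0 were lower at either day and 1 was higher at day 2.5, with medians of -0.06 and 0.02. That gene was Esco2, the acetyltransferase that sets cohesion during replication, at 42.3 against 56.4 CPM and then at 99.6 against 52.6. In the G2 and M list 8 of 58 members were higher and 1 lower at day 0.5 (median 0.14), and 35 of 58 were higher and 0 lower at day 2.5 (median 0.71). Its higher members at day 2.5 included Tpx2 (337 against 139.01 CPM), Ect2 (469 against 187.1), Aurka (53.04 against 19.9) and Kif11 (238.2 against 116.8). Replication-dependent histone genes could not be read, as 1 of 51 reached 20 UMIs.

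**Figure D2:**
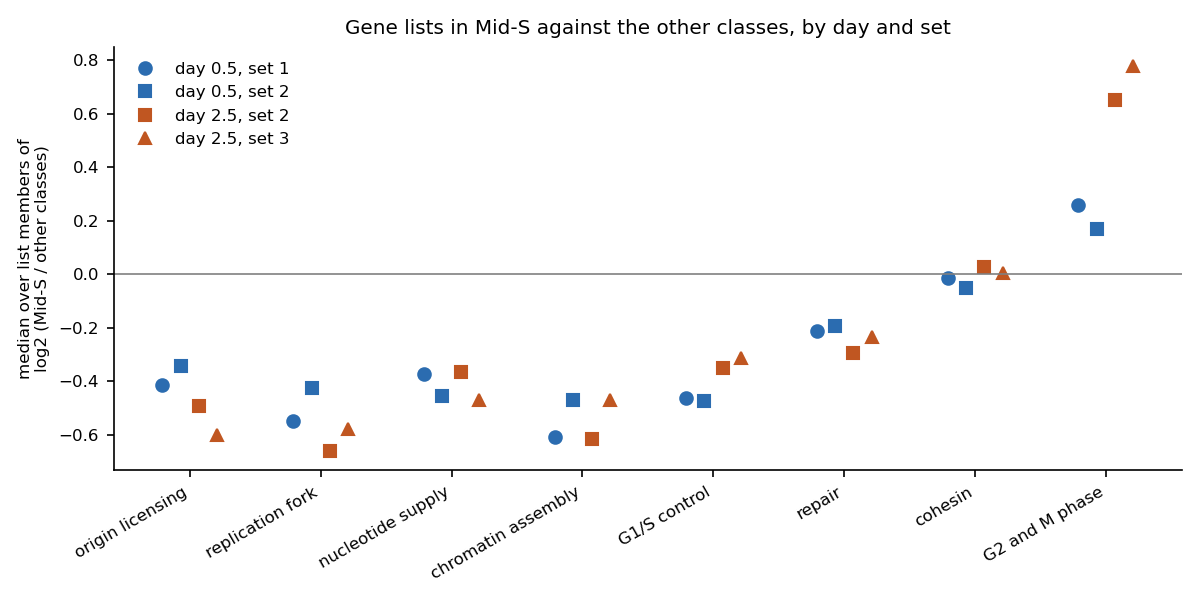
Median log2 ratio of Mid-S over the other classes for the members of 8 gene lists, in each of the 4 combinations of day and set. The licensing medians ran from -0.60 to -0.34 and the fork medians from -0.66 to -0.42, while the G2 and M medians were 0.26 and 0.17 at day 0.5 and 0.65 and 0.78 at day 2.5.

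Set against single classes, Mid-S lay nearer to Late-S than to G1 in the G2 and M, fork and chromatin assembly lists. The median log2 ratio of the G2 and M list was -0.02 and 0.03 against Late-S, but 0.43 and 0.98 against G1, where 23 and 48 of 58 members were higher. Against Early-S it was 0.43 and 0.46. Its median was also above 0 against the G2 class, at 0.15 and 0.48, where 15 members were higher and 9 lower at day 0.5, and 23 of 58 were higher and 0 lower at day 2.5. Against M it was at -0.30 and then 0.65. The fork list was at -0.12 and -0.08 against Late-S, at -0.46 and -0.60 against Early-S and at -0.51 and -0.74 against G1. The chromatin assembly list was at -0.10 and -0.29 against Late-S and at -0.76 and -0.44 against G1. Against the G2 class the fork list was at -0.02 and 0.02, and the chromatin assembly list at 0.29 and -0.09. The licensing list was at -0.22 and -0.34 against Late-S, -0.14 and -0.09 against Early-S, and -0.37 and -0.79 against G1. Against G2 that list was at -0.08 and -0.06. Against the few M cells it was at -1.48 and -1.89, and those cells also had the low share of UMIs in long genes given above. Without the M and G0 cells, 35 genes were higher and 83 lower than in the remaining classes, 27 and 69 of them shared with the full comparison.

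Between the days, 6868 genes with at least 50 UMIs in Mid-S were compared inside the class. At a ratio of 2 or more, in the same direction within set 2 and within each letter group of cell names, 699 genes were higher at day 2.5 (10.2%) and 678 lower (9.87%). The days cannot be told apart from sets 1 and 3, which lay at 1 day each, but set 2 held both days. For some genes and lists the ratio between the days in the other classes, or the levels behind it, is given beside that of Mid-S. The difference of these ratios was not tested. Shares of all genes past a ratio between the days were counted in Mid-S alone.

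The guidance receptor ligand Sema6a was the clearest example of a gene higher at day 2.5. It stood at 41.2 and 36.4 CPM in the sets of day 0.5 and at 3169 and 2425 in those of day 2.5, a ratio of 74.4 (55.98 to 101.1). The log2 ratio was 6.05 in Mid-S and 6.13 in the other classes. Zfp608, a zinc finger gene, had 6 UMIs at day 0.5 and 790 at day 2.5, or 4.88 and 735 CPM. Its log2 ratio was 6.23 in Mid-S and 5.19 in the other classes.

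Pdzrn3, a ubiquitin ligase, was at 19.9 and then 626 CPM (ratio 31.4, 21.3 to 50.4), and Ptprt, a receptor tyrosine phosphatase, at 32.5 and 720 (ratio 22.1). Eif4g3, a translation initiation scaffold, stood at 51.5, 25.5, 670.5 and 661 CPM across the sets. Adamts6, Arhgap6 and Cdh12 had ratios of 19.7, 22.3 and 21.98. Has2, a hyaluronan synthase, and Cpe, a carboxypeptidase, had no UMI in Mid-S at day 0.5 and stood at 110.7 and 81.9 CPM at day 2.5. Against a floor of 3 UMIs over the day 0.5 cells they were at least 45.4-fold and at least 33.6-fold higher. Gm49685 had 1 and 266 UMIs, a ratio of 304 (54.2 to 12068).

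Among the lower genes Jam2, a junctional adhesion molecule, was at 348 and 306 CPM in the sets of day 0.5 and at 1.45 and 0 in those of day 2.5. Its ratio was 0.00283 (7.15e-05 to 0.0159), from 404.5 UMIs to 1. Epas1, the hypoxia-inducible factor 2 alpha gene, was at 328 and 1.86 CPM, and the dioxygenase gene Tet2 at 407 and 13.03. The log2 ratio of Tet2 was -4.52 in Mid-S and -3.42 in the other classes. Zfp57, a guardian of imprinted methylation, was at 221.97 and 5.58 CPM.

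The non-coding X-linked 4930519F16Rik had the largest difference in level of any X-linked gene, with 6681 and 6459 CPM in the sets of day 0.5 and 126.6 and 312 in those of day 2.5 (ratio 0.0293, 0.0254 to 0.0336). Bnc2 was at 1665 and then 47.9, Megf11 at 670.4 and 26.1, Zeb1, a repressor of epithelial genes, at 367 and 13.03, and Nrp2, a semaphorin receptor, at 178.1 and 2.79. Gfod1, Gm14820 and Dusp27 had ratios of 0.0340, 0.0101 and 0.0214.

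**Figure D3:**
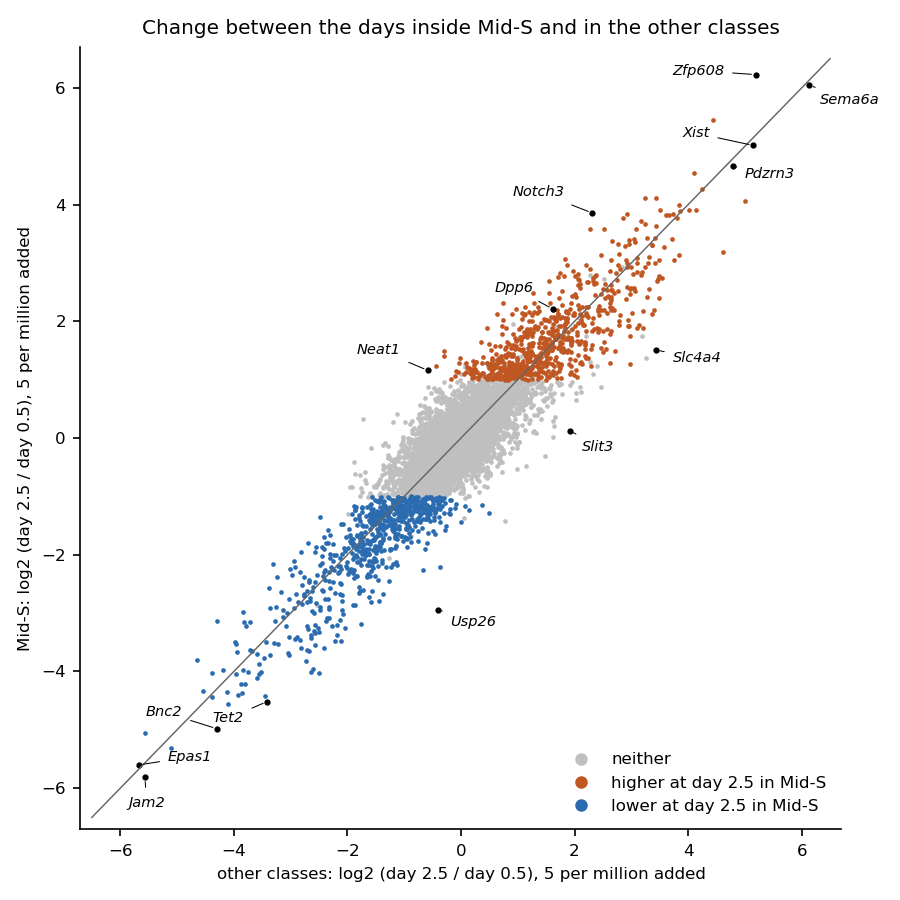
Log2 ratio of day 2.5 over day 0.5 for the 6868 genes, inside Mid-S (vertical) and in the other classes (horizontal), with 5 CPM added and the diagonal drawn. Orange and blue mark genes higher and lower in Mid-S, and labelled genes off the diagonal include Notch3, with 3.86 and 2.31, and Usp26, with -2.94 and -0.41.

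The pluripotency genes were read in Mid-S beside the other classes. At a ratio of 1.5, which 19.2% of all genes passed upwards and 21.1% downwards (median log2 ratio -0.06 over 10007 genes), 13 of 13 measured naive genes were lower at day 2.5. Their median log2 ratio was -2.56 in Mid-S and -2.53 in the other classes, and -2.56 also with Klf2, which had no UMI at day 2.5, set at its bound. Esrrb went from 299 to 16.7 CPM and Zfp42 from 331 to 15.8. Of 15 formative genes 9 were higher and 3 lower, in Mid-S as in the other classes, with medians of 0.73 and 0.96. The ligand Fgf5 went from 3.25 to 118.2 CPM, the de novo methyltransferase Dnmt3b from 468 to 1110, and Dnmt3l from 193.5 to 26.1. Of 12 general pluripotency genes 8 were lower, among them Pou5f1 (35.8 to 12.1 CPM) and Sox2 (35.4 to 6.98).

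Between the days the fork list had 13 of 33 members lower at day 2.5 and 0 higher in Mid-S, beside 21.1% of all genes lower and 19.2% higher. Its median was -0.41, against -0.24 in the other classes. Of 20 licensing genes 5 were lower and 0 higher (median -0.25, against -0.19), of 22 nucleotide genes 5 and 4 (-0.18 against -0.10), and of 22 chromatin assembly genes 7 and 3 (-0.23 against -0.16). The licensing and nucleotide shares of lower genes lay near that of all genes. Rrm2 had a ratio of 0.340 (0.226 to 0.504), and the Hells ratio was 0.595 (0.533 to 0.662).

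The G2 and M list went opposite ways. In Mid-S 16 of its 59 measured members were higher at day 2.5 and 2 lower, with a median of 0.33. Of all genes 19.2% were higher there and 21.1% lower. In the other classes 3 members were higher and 11 lower, with a median of -0.29, and the share of all genes was not counted. Hmmr had log2 ratios of 0.44 in Mid-S and -0.53 elsewhere, and Cenpe 0.57 and -0.02. The other classes held more G1 cells at day 2.5, and the part of that in the second median was not tested.

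A list of p53 targets had 8 of 16 members higher and 3 lower at day 2.5 in Mid-S (median 0.61), against 7 and 3 in the other classes (0.19). Of all genes in Mid-S 19.2% passed the same ratio of 1.5 upwards and 21.1% downwards. The share of lower members lay near that of all genes. Mdm2, the ubiquitin ligase of p53, stood at 91.5 and then 415 CPM, which is 4.54 times the earlier level (3.70 to 5.66). Its log2 ratio was 2.12 in Mid-S and 0.90 in the other classes. Trp53inp1 went from 43.9 to 379 CPM, the cyclin-dependent kinase inhibitor gene Cdkn1a from 21.1 to 111.2 and Ccng1 from 12.2 to 90.7, while Trp53 itself went from 155.3 to 77.2.

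The genes with the largest gap between Mid-S and the other classes in their day ratio are given as a description. Neat1, the scaffold RNA of paraspeckles, was at 102.9 and 179.2 CPM in the Mid-S sets of day 0.5 and at 325 and 289.5 in those of day 2.5, while the other classes had 215.7, 261, 112.6 and 212.1. Notch3, a Notch receptor, was at 17.6, 7.28, 206.9 and 344 CPM in Mid-S and at 21.5, 39.3, 178.1 and 185.4 in the other classes. The phospholipid transfer protein gene Pltp had a log2 day ratio of 1.5 in Mid-S and -0.30 elsewhere. Sgsm2, Crebrf, Cenpt, Rasa2 and Ei24 went the same way.

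In the other direction Usp26, an X-linked deubiquitinase, was at 124.2, 160.1, 14.5 and 13.04 CPM in Mid-S and at 51.4, 95.4, 52.1 and 64.7 in the other classes. Slc4a4, a bicarbonate cotransporter, had log2 ratios of 1.51 in Mid-S and 3.43 elsewhere, and the growth factor gene Vegfc -4.03 and -2.51. Slit3 had 0.13 and 1.92, with 1 cell giving 37.6% of its Mid-S UMIs at day 0.5. Fstl4, Tnik, Dnajc6 and Fat3 also had the lower ratio in Mid-S.

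Xist was among the genes of largest difference between the days. Its level in Mid-S was 29.4 and 79.1 CPM in the sets of day 0.5 and 1647 and 2145 in those of day 2.5, a ratio of 35.3 (27.3 to 45.7), or 20.8 within set 2. The rise was not particular to Mid-S. In the other classes together Xist went from 32.6 to 1325 CPM, and the share of cells with a Xist UMI from 28.1% to 78.3%. A Xist UMI was found in 32 of 87 Mid-S cells at day 0.5 (36.8%) and in 46 of 62 at day 2.5 (74.2%, 61.5 to 84.5), or in 21.8% and 62.3% of cells thinned to 5000 UMIs. Whether counting used strand is not given, so Xist reads cannot be told apart from those of the overlapping antisense Tsix, which stood at 443 and 419 CPM. Of 8 measured genes in the list of the X inactivation centre, 5 were higher at a ratio of 1.5, 1 was lower and 2 were neither. All genes passed that ratio at 19.2% upwards and 21.1% downwards. The other classes gave the same counts, with a median log2 ratio of 0.81 against 1.02 in Mid-S. Among Xist activators in Mid-S, Ftx was at 77.9 and then 1188 CPM, Jpx at 43.7 and 109.5, and Rlim, a ubiquitin ligase, at 122.4 and 218.2.

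By class at day 2.5, summed Xist was 843 CPM in G1, 1417 in Early-S, 1825 in Mid-S, 1972 in Late-S and 2480 in G2. Mid-S was above G1 by a ratio of 2.17 (2.004 to 2.34), in set 2 by 1.84 and in set 3 by 2.73. It was above Early-S by 1.29 (1.15 to 1.45) in the sum of the sets, but the sets went opposite ways. In set 2 Early-S stood at 2021 CPM and Mid-S at 1647, and in set 3 at 805 and 2145. Mid-S and Late-S could not be separated even by counting error (0.925, 0.838 to 1.02). Late-S stood at 2087 CPM in set 2 and 1733 in set 3, so the sets went opposite ways here too. Mid-S was below G2 in the sum (0.736, 0.680 to 0.796) and in each set, where G2 stood at 2143 and 2706 CPM. The M class, at 1163 CPM, rested on 1 cell with 35 Xist UMIs of 533, and stood at 337 without it. The number of cells per class, and not counting error, limits this order, since single Mid-S cells ran from 0 to 6976 CPM.

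**Figure D4:**
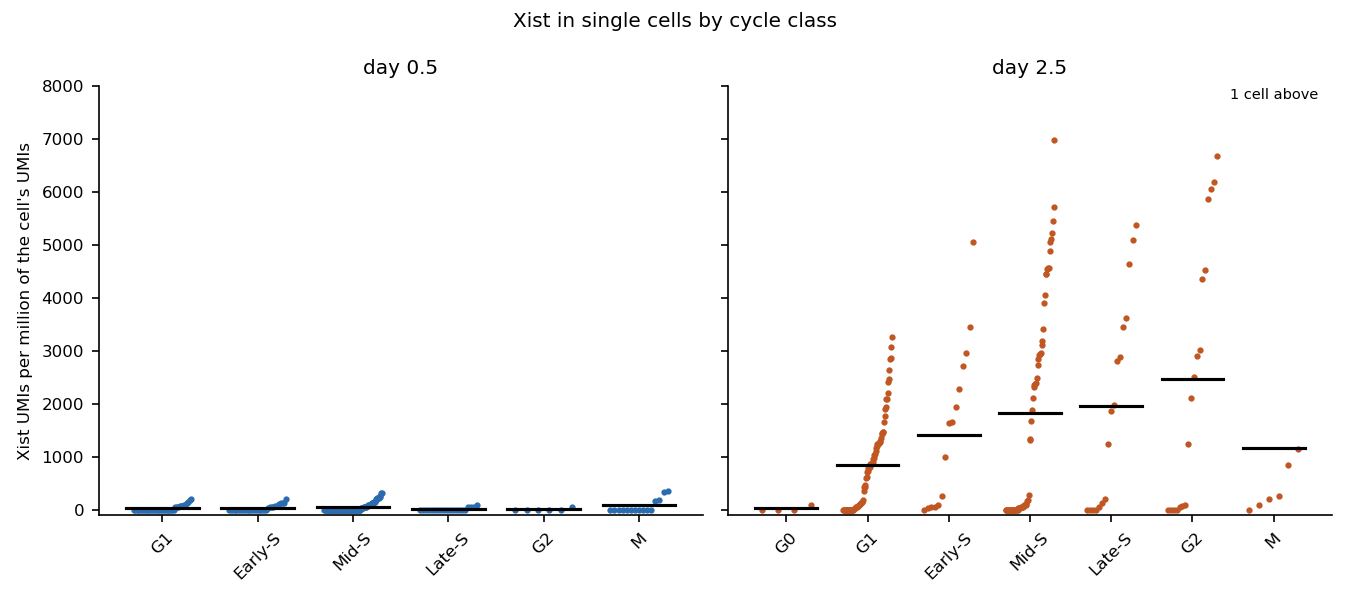
Xist CPM of each cell's UMIs by cell cycle class, at day 0.5 (left) and day 2.5 (right), with 1 point per cell in order within its class and a line at the level of the summed cells. The Mid-S line is at 51.6 CPM at day 0.5 and at 1825 at day 2.5, where 16 of 62 Mid-S cells had no Xist UMI, and 1 M cell at 65666 lies above the axis.

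The authors' table of X-linked UMIs by parental allele held all 87 Mid-S cells of day 0.5 but 39 of the 62 of day 2.5. Those 39 cells had 3000 Xist CPM and 36 of them had a Xist UMI, while the 23 cells outside had 42.2 CPM and 10 had one, at median depths of 17089 and 17987 UMIs. Membership of that table therefore moved with Xist, and the allelic values at day 2.5 describe the cells inside it. Inside the table the levels were 1375 CPM in G1, 2505 in Early-S, 3000 in Mid-S, 3273 in Late-S and 3870 in G2. The cells inside held most of the Xist UMIs behind the order given above, in Mid-S 1943 of 1961. That the order was the same is therefore no separate check of it.

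The share of Mid-S UMIs from X-linked genes was 5.62% and then 4.57%, which gives a ratio of 0.813 (0.803 to 0.822). Without Xist the ratio was 0.781, and without Xist and 4930519F16Rik it was 0.879 (0.868 to 0.890), so the latter gene alone made up a large part of the difference. The same ratio without both genes was 0.925 (0.911 to 0.939) in G1 and 0.912 (0.903 to 0.921) in all other classes. By class the share without both genes went from 4.97% to 4.37% in Mid-S, 5.21% to 4.92% in Early-S and 5.06% to 4.54% in Late-S. It fell by more in G2, from 5.23% to 4.38%, and in M, from 4.95% to 3.50%. Those classes were small, with 6 G2 cells at day 0.5 and 7 M cells at day 2.5. In the Mid-S cells of the allele table the ratio over all X-linked genes was 0.729.

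Allelic UMIs of X-linked genes other than Xist and Tsix showed how single cells differed. A cell was counted as one-sided when at least 80% of at least 20 such UMIs came from 1 parent. At day 0.5, 0 of 87 Mid-S cells were one-sided (exact Clopper-Pearson upper bound 4.15%, or 3.45% taken as 3 cells of 87), and the B6 share over single cells ran from 38.8% to 66.4%, with 49.5% in the sum. At day 2.5, 20 of 39 were one-sided (51.3%, 34.8 to 67.6), 13 towards CAST and 7 towards B6. The share was 79.5% at a limit of 70% and 5.13% at a limit of 90%. The B6 share in the sum was then 39.8% (38.9 to 40.7), and over cells it ran from 6.17% through a median of 25.8% to 92.4%.

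By set, 14 of 23 cells in set 2 (60.9%) and 6 of 16 in set 3 (37.5%) were one-sided at day 2.5. The other classes had 34 of 82 (41.5%, 30.7 to 52.9), an interval that overlaps that of Mid-S. Allelic Xist UMIs in the 39 cells came from B6 alone in 12, from CAST alone in 4, from both in 18 and from neither in 5. In each cell with both, 1 allele gave nearly all of them. The lesser allele gave at most 6 UMIs, beside 88 from the other, and 1 cell had 3 from B6 and 40 from CAST. The cells with B6 alone included cells with 2 and 1 Xist UMIs, whose B6 shares of the other X-linked UMIs were 43.4% and 50.9%. In the 12 cells with B6 Xist alone 75.3% of the other X-linked UMIs came from CAST, and in the 4 cells with CAST Xist alone 78% came from B6. Over the 39 cells Xist had 894.5 UMIs from B6 and 413 from CAST.

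**Figure D5:**
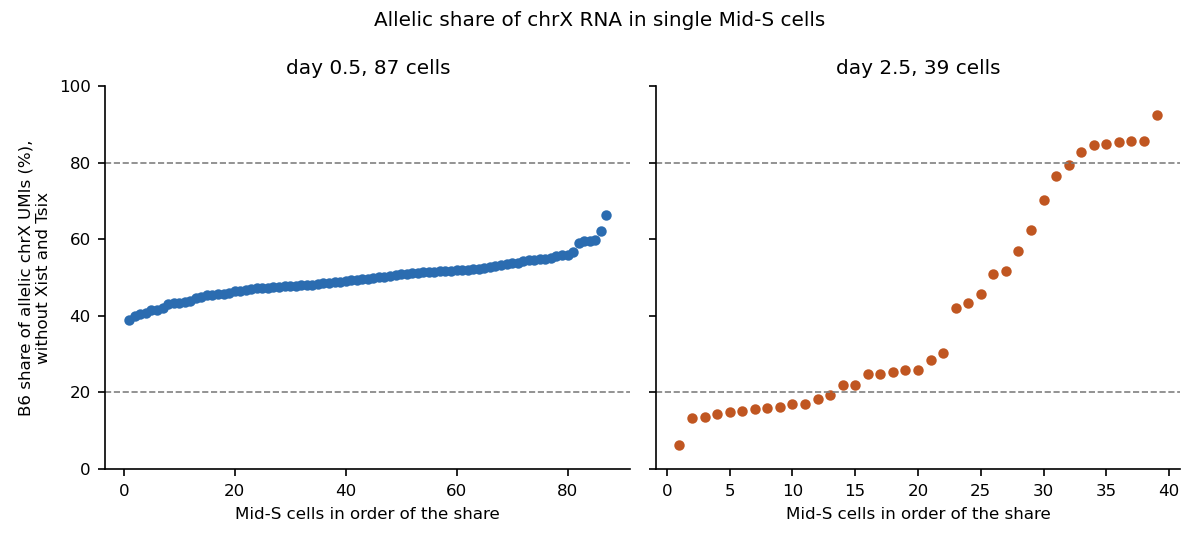
Share of allelic X-linked UMIs from the B6 chromosome in each Mid-S cell of the allele table, without Xist and Tsix, with cells in order of the share at day 0.5 (left, 87 cells) and day 2.5 (right, 39 cells). Dashed lines mark 20% and 80%, which 0 of 87 cells passed at day 0.5 and 20 of 39 at day 2.5.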

How the data were processed

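Cells were assigned to day 0.5 or 2.5 by the cell names in the sample titles, and to a cell cycle class by the authors' deposited metadata. Members and gene lists were chosen with earlier results of these data known. The deposited expression and X-linked allele tables hold expected counts, which are UMIs for each gene and cell that the authors did not normalize. Of values above 0, 11.1% are not whole, so they were summed without rounding. Contacts per cell are deposited counts, the share of contacts between chromosomes is a deposited fraction, and the phase values are deposited scores. The build is GRCm38, per the submitters' processing notes; the sources used here do not give the aligner, counter, filters or strand. Columns of no sample (1101 and 893) were not used. Gene positions came from RefSeq by name (76.6% of names, 97.0% of Mid-S UMIs).

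Counts were summed per class, day and set and scaled to 1000000 UMIs of the summed cells (CPM); log2 ratios had 5 CPM added. Each day is 1 sample, so no count model was fitted and no test was run. Intervals are 95% exact Poisson, conditional (ratios) or Clopper-Pearson (shares), and order-statistic intervals for median lengths. Doublets were not called. Thinning to 5000 UMIs left out 1 Mid-S cell and 13 others. Named genes were the 12 highest and 12 lowest by the smaller class ratio of both days, the 12 highest and lowest between days in Mid-S, the 8 highest and lowest in the difference of day ratios between Mid-S and the rest, list members with the most UMIs, and the markers; list members named beyond these were chosen after their values were seen. Some genes that the rule takes are not reported here. The ratio script was tested on simulated counts. Python 3.11.15, numpy 2.4.6, pandas 2.3.3, scipy 1.17.1 and matplotlib 3.10.9 were used.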

Additional observations from a re-analysis of the deposited data

Results flagged for a closer look

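The G2 and M phase list went opposite ways between the days. Its median log2 ratio of day 2.5 over day 0.5 was 0.33 inside Mid-S and -0.29 in the other classes, over 59 measured members. In the 4 pairings of a day 2.5 set with a day 0.5 set, the median lay between 0.23 and 0.31 in Mid-S and between -0.31 and -0.18 in the other classes. The difference between Mid-S and the other classes was not tested, since each day is 1 sample.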

How the results depend on the processing

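Among values of the main results under other settings 44 moved past the limit set for them and 0 reversed, and of 638 values of named genes 77 moved and 0 reversed. Gene counts and shares of cells could not count as reversed, only list medians, the Xist and X-linked ratios and the B6 share. For named genes a change of sign counted as reversed only where the main value had passed its ratio. Otherwise it counted as moved, so the moved values can include changes of sign. Gene counts that left a factor of 1.5 around the main count are given with their percent of genes tested. A minimum of 50 UMIs gave 2.31% of 6708 genes lower in Mid-S. No minimum gave 0.590% higher and 1.41% lower (323) of 22889, and between the days 4.28% (1101) and 4.68% (1204) of 25736. Thinning to 5000 UMIs gave 31 lower genes (1.54%), between the days 362 (10.4%) and 380 (10.9%), a G2 and M median of 0.87 at day 2.5 and an X-linked ratio of 0.803. Cells of letter B alone, the fewest, gave 12 higher (2.37%) and 7 lower (1.38%), between the days 12.03% and 12.5% of 1471 genes, and medians of -0.69 (licensing, day 0.5), -0.12 (fork, day 0.5) and 0.95 (G2 and M, day 2.5). Against Early-S and Late-S alone 13 genes were higher (0.413%) and 24 lower (0.762%), and the medians were -0.11 and -0.13 (nucleotide), -0.24 (chromatin assembly, day 0.5) and 0.21 (G2 and M, day 2.5). Against G1 alone 3.22% of 3481 genes were higher, with medians of -0.74 (chromatin assembly, day 0.5), -0.79 (fork, day 2.5), 0.39 and 0.98 (G2 and M), over members with 20 UMIs in Mid-S and G1 alone. A ratio of 2 left 2 higher (0.0437%) and 5 lower genes (0.109%), and a ratio of 1.5 gave 1200 (17.5%) and 1229 (17.9%) between the days. The X-linked ratio was 0.802 in set 2, 0.826 in letter A, 0.729 in the allele table, 0.781 without Xist and 0.879 without Xist and 4930519F16Rik. The Xist ratio was 20.8 in set 2 and 58.1 in the allele table, where 92.3% of cells had a UMI. The one-sided share was 79.5% at a limit of 70% and 5.13% at 90%. The B6 share was 41.7% in set 2 and 41.2% as a mean over cells. Where a setting has fewer cells, genes or UMIs its counts shrink by construction; otherwise the cause was not tested. The comparison without M and G0 cells was added after seeing the data. The Mid-S share over all metadata cells was not run, as the class is given for the cells of the expression table. No paired analysis was possible because each day is 1 sample.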
